A study of Rattus norvegicus with 6 samples.

Results

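The microRNAs described here are the 5 members of the miR-30 family measured as 5p strands in rat plasma, rno-miR-30a-5p, rno-miR-30b-5p, rno-miR-30c-5p, rno-miR-30d-5p and rno-miR-30e-5p. They were chosen by name, and all 5 were found among the 758 rat microRNAs of the array. Arterial plasma was drawn from the abdominal aorta, and venous plasma was drawn from the postcava, the large vein that returns blood from the lower body. Donors were 3 untreated male Sprague-Dawley rats aged 10 weeks, each of which gave 1 arterial and 1 venous sample, so the 3 arterial and 3 venous samples were compared within rats. The blood was taken into EDTA with an RNase inhibitor, and the plasma was spun at a low and then a high speed and passed through a filter before its RNA was extracted. The design asks whether the microRNAs of the same animal differ between the 2 kinds of plasma. In plasma, the amount of RNA released and the amount cleared cannot be told apart.

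MicroRNAs are short RNAs that guide the silencing complex to messenger RNAs, mainly through the seed near their 5′ end, and so lower the protein made from them. Members of the miR-30 family share their seed and can therefore act on overlapping sets of targets. They are abundant in heart, kidney and endothelium, and known targets include the matrix regulator Ctgf, the autophagy gene Becn1 and the Notch ligand Dll4. Circulating microRNAs are carried in vesicles and in protein complexes, and cells of the blood as well as solid tissues release them.

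Mature sequences for 3 of the 5 members were found in RefSeq's annotation of the GRCr8 assembly. They are shown because the seed, which is bases 2 to 8 and is set in capitals, defines the family, and because the bases after it are what a probe can use to tell the members apart. The last of these sequences belongs to rno-miR-384-5p, the 1 other microRNA of the array found with this seed among the 693 mature sequences of that table, which does not hold every microRNA of the array.
rno-miR-30a-5p: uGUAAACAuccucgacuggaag
rno-miR-30c-5p: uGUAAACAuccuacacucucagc
rno-miR-30e-5p: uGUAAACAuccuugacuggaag
rno-miR-384-5p: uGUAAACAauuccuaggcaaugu
No entry was matched for rno-miR-30b-5p or rno-miR-30d-5p. The first 12 bases of rno-miR-30a-5p, rno-miR-30c-5p and rno-miR-30e-5p were identical. Positions are counted from 1 at the 5′ end. Between rno-miR-30a-5p and rno-miR-30e-5p, 1 of 22 positions differed (C13U). Between rno-miR-30a-5p and rno-miR-30c-5p, 5 of 22 differed (C13A, G14C, G18C, G19U and A20C). How far a probe for 1 member also binds another was not tested.

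In GRCr8 the mature rno-miR-30a-5p lies at chr9:33233946-33233967 on the plus strand. The mature rno-miR-30e-5p lies at chr5:139637504-139637525 on the minus strand. Identical copies of rno-miR-30c-5p are made from the hairpin genes Mir30c1, at chr5:139634505-139634527 on the minus strand, and Mir30c2, at chr9:33253695-33253717 on the plus strand, so the array cannot say which hairpin its signal came from. The hairpins Mir30c1 and Mir30e both overlap the protein-coding gene Nfyc, which encodes a subunit of the transcription factor NF-Y, and start 2995 bases apart. On chromosome 9, the hairpins Mir30a and Mir30c2 start 19741 bases apart.

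All 5 members were detected on all 6 arrays, as were 126 of the 758 microRNAs. Each member had 2 probes of 8 spots, which makes 80 member spots on an array. Of the 480 member spots over the 6 arrays, 470 were well above background, 55 carried an outlier mark and were left out, and 0 were saturated. Over the spots of a probe on an array the coefficient of variation had a median of 5.06% (1.02 to 23.5%). Detected microRNAs numbered 159 to 174 on the arterial and 137 to 175 on the venous arrays. The number of arrays limits the precision. Both arrays of a rat lay on 1 slide (rats 1 and 2 on 1 slide and rat 3 on the other), so slide does not separate arterial from venous plasma.

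In normalized intensities, none of the 5 members differed between arterial and venous plasma at the unadjusted cutoff of 0.025 or at an adjusted p of 0.05 (limma with the rat as block, Benjamini-Hochberg adjustment). The fitted differences, arterial minus venous, ran from -0.20 to 0.02 on the log2 scale with a median of -0.11, and 4 of the 5 were below 0. Over the 126 microRNAs detected on all arrays the median difference was -0.00405 (quartiles -0.22 and 0.14), and 52.4% were below 0. At the cutoff, 6 of 758 microRNAs were called (0.792%, 4 higher in arterial and 2 in venous plasma), and the adjusted threshold gave 0 (0%). In that fit 12 of the 758 had an unadjusted p of 0.05 or less, and the smallest adjusted p was 0.241. Fitting only the 126 gave 3 calls at the cutoff (2.38%) and 0 at the adjusted threshold (0%), with 7 at an unadjusted p of 0.05 or less. With the methods' t-test, 4 microRNAs passed the cutoff, 0 members among them, and 0 passed after adjustment.

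**Figure D1:**
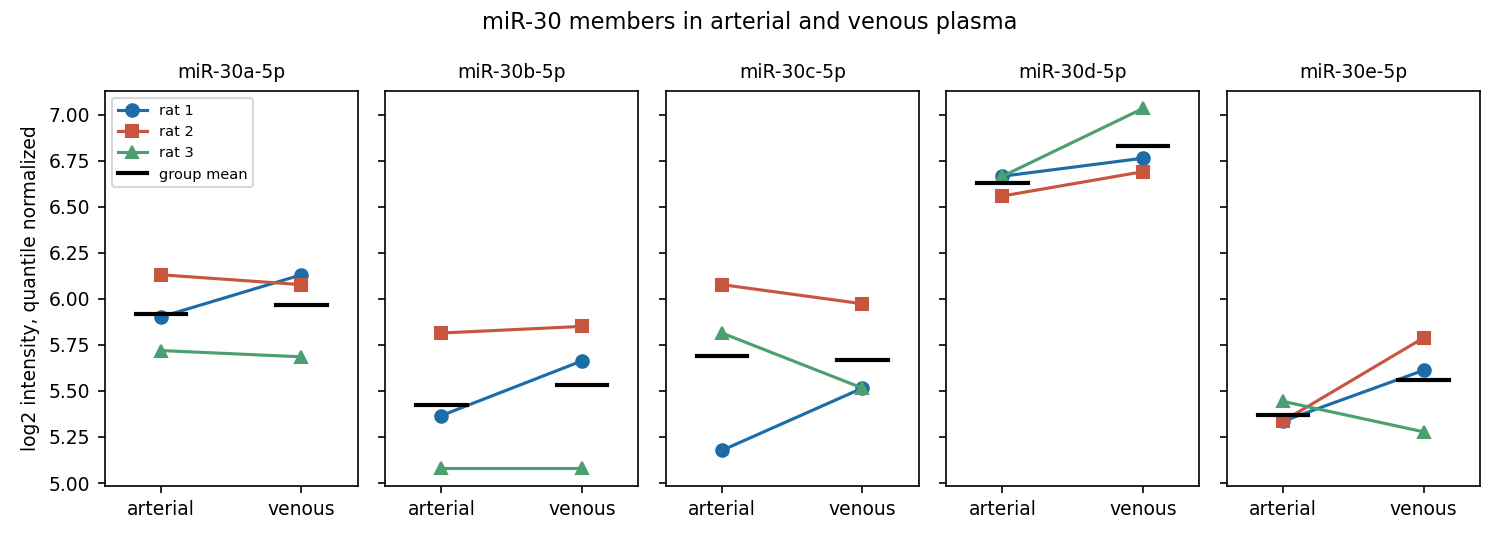
Quantile-normalized log2 intensity (vertical axis) of each miR-30 member in arterial and venous plasma. Symbols and lines join the 2 samples of a rat and black bars are group means (n = 3). Arterial and venous samples overlap for 4 of the 5 members, while for miR-30d-5p the arterial values (6.56 to 6.67) lie under the venous ones (6.69 to 7.03).

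The member whose samples did not overlap was rno-miR-30d-5p, a microRNA often followed in blood in studies of heart failure. Its arterial log2 intensities were 6.67, 6.56 and 6.67 in rat 1, rat 2 and rat 3, and its venous ones were 6.76, 6.69 and 7.03. Every arterial sample thus lay under every venous sample, and 4.76% of the 126 detected microRNAs had groups that did not overlap in either direction. The differences within rats were -0.10, -0.13 and -0.37, and it was the 1 member of 5 with the same direction in all 3 rats, which held for 19.8% of the 126. Group means were 6.63 ± 0.06 in arterial and 6.83 ± 0.18 in venous plasma (SD, n = 3). The fitted difference of -0.20 had a standard error of 0.0809 and did not pass (limma, adjusted p = 1). Its 95% interval of -0.52 to 0.12 corresponds to an arterial level between 0.698 and 1.09 times the venous one. Within the slide of rats 1 and 2 the difference was -0.11, and in rat 3, the only rat on the other slide, it was -0.37.

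The order of the groups for rno-miR-30d-5p depended on how arrays were scaled. Without normalization its arterial intensity over its venous intensity was 1.58 for rat 1, 0.743 for rat 2 and 1.5 for rat 3. The arterial intensities (127, 112 and 88.1) and the venous ones (80.2, 151 and 58.8) then overlapped. Set against the median ratio of the 126 detected microRNAs in the same rat, the log2 differences were 0.03, -0.14 and -0.25, so rat 1 no longer shared the direction of the others.

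For rno-miR-30e-5p, the arterial log2 intensities were 5.34, 5.34 and 5.44 and the venous ones 5.61, 5.79 and 5.28. The arterial samples were close together and lay within the range of the venous samples. Its differences were -0.28, -0.45 and 0.17 in rats 1 to 3. The estimate was -0.19 (standard error 0.175, limma adjusted p = 1), with an interval of 0.543 to 1.42 for the ratio of arterial to venous level.

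The microRNA rno-miR-30a-5p, known for repressing Becn1, had arterial values of 5.90, 6.13 and 5.72 and venous values of 6.13, 6.08 and 5.68. The difference was -0.23 in rat 1 and 0.05 and 0.03 in the others, so the sign of the estimate of -0.05 rested on rat 1, without which it was 0.0438. The interval with all rats was -0.39 to 0.30 (limma, adjusted p = 1), a ratio of 0.763 to 1.23.

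The values of rno-miR-30b-5p were 5.37, 5.81 and 5.08 in arterial and 5.66, 5.85 and 5.08 in venous plasma. Both samples of rat 3 held the same rank on their arrays, and quantile normalization therefore gave them the same value. The differences in the 3 rats were -0.30, -0.04 and 0. The estimate of -0.11 had an interval of -0.46 to 0.24 (limma, adjusted p = 1), a ratio of 0.725 to 1.18.

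For rno-miR-30c-5p, a described repressor of Ctgf in heart tissue, the arterial values were 5.18, 6.08 and 5.81 and the venous values 5.52, 5.97 and 5.52. Rat 1 was lower in arterial plasma and the other rats were higher, with differences of -0.34, 0.10 and 0.30. The estimate was 0.02 with an interval of -0.69 to 0.73 (limma, adjusted p = 1), which leaves room for a ratio between 0.620 and 1.66. Before adjustment, limma's p for the 5 members ranged from 0.122 for rno-miR-30d-5p to 0.914 for rno-miR-30c-5p. When only the 126 detected microRNAs were fitted, these p ranged from 0.305 for rno-miR-30d-5p to 0.919 for rno-miR-30c-5p, and the interval of rno-miR-30d-5p widened to -0.64 to 0.25.

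**Figure D2:**
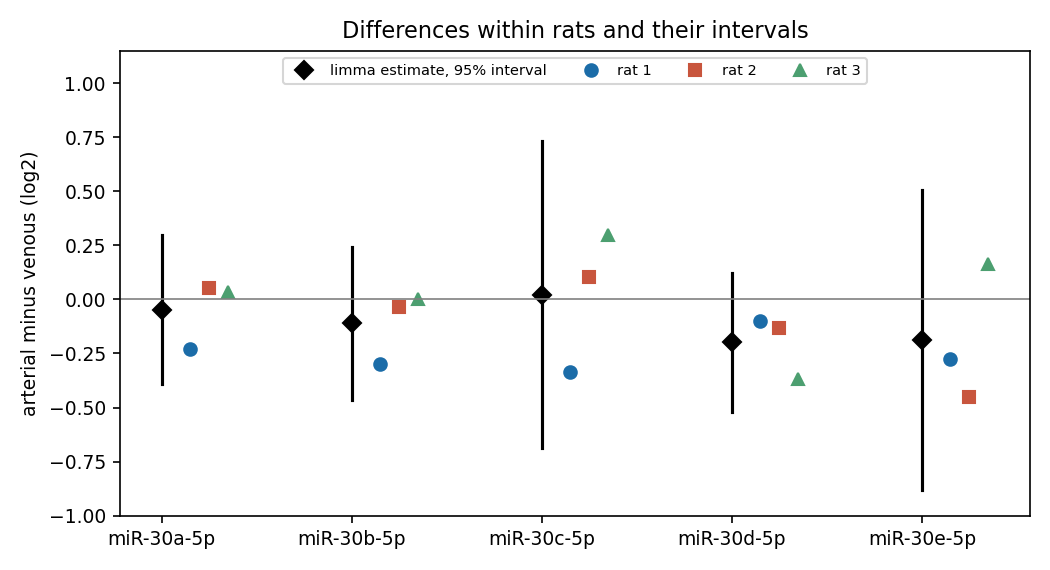
Arterial minus venous log2 intensity (vertical axis) for each member. Coloured symbols are the 3 rats and black diamonds with lines are the limma estimates with 95% intervals. All 5 intervals include 0, and only the rats of miR-30d-5p lie on 1 side of it.

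After quantile normalization, differences of the members within a rat were small beside those of the 126 detected microRNAs, which include the members. The sets were not matched for brightness, and the difference between them was not tested. All 15 combinations of a member and a rat stayed under 0.5 in size on the log2 scale, against 73.3% of the combinations of the 126 detected microRNAs. The median size was 0.165 for the members and 0.301 for the 126. The direction differed between rats. The number of members higher in arterial plasma was 0 of 5 for rat 1, 2 for rat 2 and 3 for rat 3. Of the 126, 34.9, 46.0 and 50% were higher in arterial plasma in rats 1 to 3. In rat 3, 1 member was lower and rno-miR-30b-5p stood at 0. The median differences of the members were -0.28, -0.04 and 0.03, beside -0.13, 0 and 0.02 for the 126.

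The medians of blood cell marker lists differed between rats in direction too, and 0 of the listed markers passed the cutoff. Over the 6 microRNAs of the erythrocyte list, among them the abundant red cell microRNA rno-miR-451-5p, the median differences were -0.25, -0.44 and 0.25. Single markers did not all follow these medians. The differences of rno-miR-451-5p were 0, 0 and 0.79. In rats 1 and 2 both its samples held the same rank on their arrays and so were given the same value by quantile normalization. These values of 0 therefore do not show equal amounts. The microRNA rno-miR-486 was lower in arterial plasma in all 3 rats (-0.23, -1.02 and -0.47). The 4 of the platelet and leukocyte list, with the myeloid rno-miR-223-3p, had medians of -0.36, -0.40 and 0.61, and the lymphocyte-enriched rno-miR-150-5p among them was lower in arterial plasma in all 3 rats (-0.22, -0.40 and -0.58). Both rno-miR-486 and rno-miR-150-5p are named after their values were seen. All 10 were detected on every array, and their summed share of an array's signal was 13.0 to 17.4% in arterial and 12.8 to 19.6% in venous plasma for the erythrocyte list, and 3.07 to 5.34% and 3.90 to 5.66% for the other. Of the 3 liver microRNAs 2 were detected on all arrays, with hepatocyte-enriched rno-miR-122-5p at differences of -0.21, 1.23 and 0.30, and a list share of 0.417 to 3.87% in arterial and 0.533 to 1.82% in venous plasma. The endothelial rno-miR-126a-3p, detected on all arrays, had differences of -0.14, 0.40 and 0.35, and the share of its list of 2 was 0.185 to 0.359% in arterial and 0.200 to 0.313% in venous plasma. Of the 6 heart and skeletal muscle microRNAs 4 were detected on 0 arrays, including the defining rno-miR-1-3p, and the list's share was 0.109 to 0.278% and 0.119 to 0.322%. The part of these cells in the members' differences was not tested.

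The span of the rats' means exceeded the mean size of the differences within rats for 4 of the 5 members, as for 83.3% of the detected microRNAs. A span of means and a mean size of differences are unlike measures, and whether rats differed more than plasma kinds was not tested. The means of both samples of a rat spanned 0.75 for rno-miR-30b-5p, 0.68 for rno-miR-30c-5p and 0.40 for rno-miR-30a-5p, beside mean sizes of 0.11, 0.25 and 0.11 for the differences within rats. For rno-miR-30d-5p the span was 0.23 beside 0.20. In rno-miR-30e-5p the rats spanned 0.20 and the plasma samples within rats differed by 0.30. The median span of the 126 was 0.71 (quartiles 0.44 and 1.03), so the spans of rno-miR-30a-5p, rno-miR-30d-5p and rno-miR-30e-5p lay under its lower quartile.

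Rat 2 held the highest mean of rno-miR-30a-5p, rno-miR-30b-5p, rno-miR-30c-5p and rno-miR-30e-5p, whereas rno-miR-30d-5p was lowest there. Over the 6 arrays rno-miR-30a-5p and rno-miR-30b-5p had a Pearson correlation of 0.965 (Spearman 0.794), and rno-miR-30d-5p had Pearson correlations of -0.56 to -0.20 with the other 4. Its Spearman correlations with them ran from -0.44 to 0.01, so the sign with rno-miR-30e-5p depended on the measure. These are descriptions over 6 arrays from 3 rats, which share the normalization, and carry no p.

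Dividing by the mean of the 5 members on the same array removes every scaling of whole arrays. On that measure the log2 differences of rno-miR-30d-5p were 0.20, -0.04 and -0.27 in rats 1 to 3, and those of rno-miR-30c-5p were -0.15, 0.11 and 0.24. For none of the 5 members did the 3 rats share a sign (two-sided exact permutation test over the pairs, p of 0.75 or 1 for each of the 5, where 3 pairs cannot give less than 0.25). The mix of the family within an array thus showed no direction shared by the 3 rats.

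Unnormalized intensities of the members ran from 17.3 to 151, after the background subtraction of Feature Extraction. Their ratios of arterial to venous intensity were 1.24 to 1.58 for rat 1, 0.668 to 0.824 for rat 2 and 1.5 to 2.15 for rat 3. All members were thus brighter in arterial plasma in rats 1 and 3 and brighter in venous plasma in rat 2. The median ratios of the 126 detected microRNAs were 1.55, 0.819 and 1.78, so the median of the array lay on the same side of 1 in each rat. Standard errors from the spots were 0.016 to 0.051 on the log2 scale and cover technical spread only. Some members lay closer together than that, such as rno-miR-30b-5p and rno-miR-30c-5p in rat 2, both at -0.28.

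**Figure D3:**
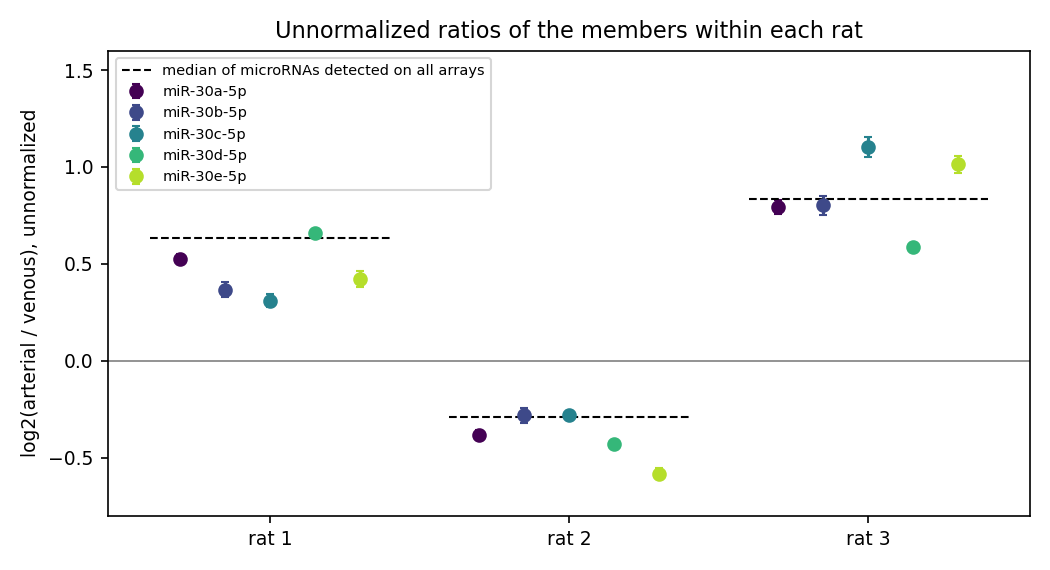
Log2 ratio of arterial to venous intensity without normalization (vertical axis) for each member in each rat, with standard errors over spots. Dashed lines are the median ratios of the 126 microRNAs detected on all arrays (0.63, -0.29 and 0.84 in rats 1 to 3), and the members lie from 0.32 below to 0.27 above them.

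Relative to that median the members stood at -0.32 to 0.03 for rat 1, -0.29 to 0.01 for rat 2 and -0.25 to 0.27 for rat 3. Spike-in RNAs added before labelling read 555, 1296 and 1191 in the arterial samples and 553, 547 and 476 in the venous samples, so they were higher in arterial plasma of rats 2 and 3. Hybridization spike-ins read 3992 to 5365 in arterial and 4345 to 5620 in venous samples. The median difference of the members was -0.11 after quantile normalization, 0.30 without normalization, 0.38 when scaled to the hybridization spike-ins and -0.56 when scaled to the labelling spike-ins, which is an alternative chosen after seeing the data. The median of the 126 moved along, to 0.40, 0.49 and -0.45. Such scalings shift every microRNA of an array alike, so the members' median minus that of the 126 is -0.11 in each by construction. After quantile normalization it was -0.11 with all rats and -0.00895 without rat 1. The direction of the members in absolute amount is therefore not settled by these arrays.

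Both probes of a member gave ratios on the same side of 0 in 15 of 15 combinations of member and rat. These ratios are without normalization, where a shift of the whole array moves both probes alike. A shared side of 0 therefore says little about how well the probes agree. The 2 probes differed by a median of 0.0871 on the log2 scale and at most by 0.226, for rno-miR-30b-5p in rat 3. Relative to the median of the detected microRNAs, the 2 probes fell on the same side in 11 of 15. For rno-miR-30d-5p and rno-miR-30e-5p they did so in all 3 rats. The brighter probe of rno-miR-30d-5p read 1.14 to 1.22 times the dimmer one. That ratio was 2.65 to 3.28 for rno-miR-30b-5p. Its estimate moved from -0.11 to 0.0021 when every microRNA was represented by its brightest probe, so the move is not that of its own probe alone. Relative to the median of the detected microRNAs, its brighter probe stood at -0.29, 0.03 and 0.02 in rats 1 to 3.

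**Figure D4:**
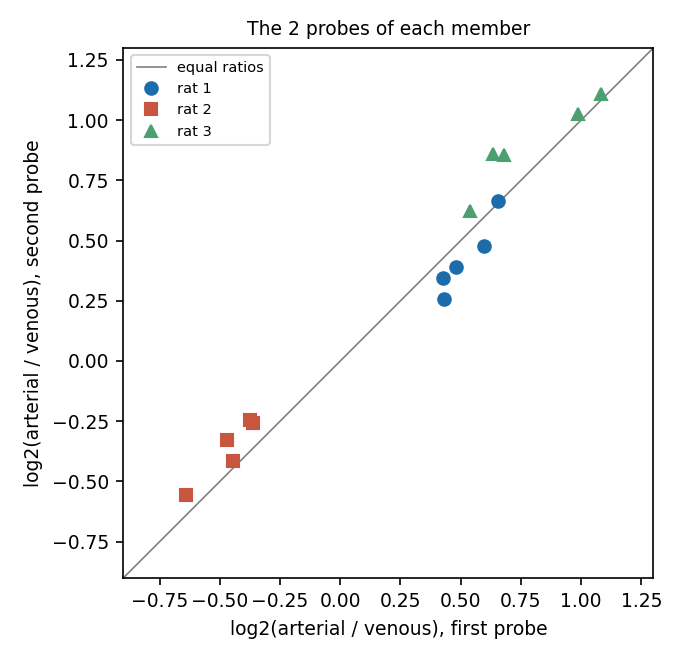
Unnormalized log2 ratio of arterial to venous intensity from the first probe (horizontal axis) and the second probe (vertical axis) of each member in each rat; the line marks equal ratios. All 15 points have both ratios on 1 side of 0, with rat 2 below 0 and rats 1 and 3 above it.

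The 5 members together took a smaller share of the array's summed signal in arterial than in venous plasma in all 3 rats. The share was 1.49, 2.14 and 1.75% in arterial samples and 1.86, 2.49 and 1.93% in venous samples. Each rat's arterial share lay under its venous share, while the groups overlapped because rat 2 was high in both. Means were 1.79 ± 0.324% and 2.09 ± 0.341% (SD, n = 3). The mean difference was -0.301 percentage points, and the differences within rats had an SD of 0.104. Its p was the smallest that this test can give with 3 pairs (two-sided exact permutation test over the pairs, p = 0.25). This test therefore cannot reach 0.05 here. Computed from spot medians the shares of rat 3 turned round, to 1.31% in arterial and 1.22% in venous plasma, and the mean difference was -0.10 (same exact permutation test, p = 0.5).

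Single members took part in this to differing degrees. The share of rno-miR-30d-5p was 0.579, 0.616 and 0.610% in arterial and 0.651, 0.737 and 0.782% in venous samples, without overlap. On this measure 7.14% of the 126 detected microRNAs had every arterial sample under every venous one, and 7.94% had no overlap in either direction. The shares of rno-miR-30a-5p and rno-miR-30b-5p were also lower in the arterial sample of each rat, as were those of 23% of the 126. For rno-miR-30c-5p and rno-miR-30e-5p this held in rats 1 and 2, and rat 3 had arterial shares of 0.346 and 0.267% beside venous shares of 0.310 and 0.255%. A share depends on every other microRNA of the array, and the few brightest weigh most in it.

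**Figure D5:**
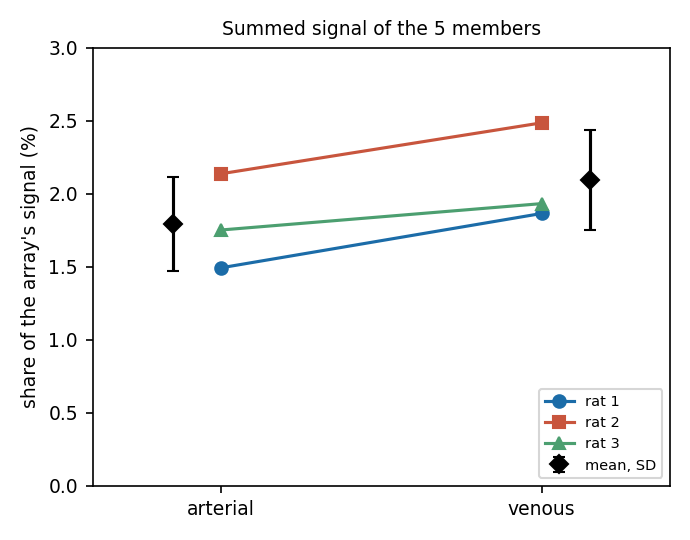
Summed intensity of the 5 members as a percent of the summed intensity of all rat microRNAs on the array (vertical axis, from 0). Lines join the samples of a rat and diamonds are group means with SD (n = 3); the share is lower in arterial plasma in each rat, with differences of -0.372, -0.349 and -0.181 percentage points.

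The opposite strands of the same hairpins were mostly under detection. Of the 6 on the array, rno-miR-30a-3p, rno-miR-30b-3p, rno-miR-30c-2-3p and rno-miR-30d-3p were detected on 0 arrays, and rno-miR-30e-3p on 1, the venous array of rat 2. The strand rno-miR-30c-1-3p was detected on all 6, with arterial values of 2.65, 1.90 and 1.61 and venous values of 2.68, 2.37 and 2.06. It was lower in arterial plasma in all 3 rats, with differences of -0.04, -0.47 and -0.45, a shared direction that 19.8% of the 126 had in one sense or the other, and the groups overlapped. Without normalization and relative to the median of the 126 the differences were 0.06, -0.51 and -0.79, so the sign in rat 1 turned. The estimate was -0.32 (standard error 0.135, limma adjusted p = 1). Its signal came from 1 of 4 probes, as the other 3 read between -2.39 and 4.05 after background subtraction. The seed relative rno-miR-384-5p was not detected on any array.

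The 5 microRNAs whose profile over the arrays was most like the mean profile of the members were picked from 121 candidates detected on all arrays, among which the median Pearson correlation was 0.0748. They were rno-miR-27b-3p with a correlation of 0.890 (Spearman 0.886), rno-miR-140-5p with 0.816 (0.943), rno-miR-199a-3p with 0.753 (0.771), rno-let-7g-5p with 0.737 (0.886) and rno-miR-130a-3p with 0.718 (0.771). All 5 of these were lower in arterial plasma in rat 1 and higher in rat 3. Of the 126 microRNAs detected on all arrays, 34.9% were higher in arterial plasma in rat 1 and 50% in rat 3. Picking microRNAs for likeness to the members favours the members' own directions, so the shared direction is no separate result. The correlations are over 6 arrays of 3 rats and were selected as the highest, so they are given as a description.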

How the data were processed

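Arterial and venous plasma of 3 rats was hybridized to 6 single-colour Agilent rat microRNA arrays, and samples were paired by the rat number in the labels. The authors deposited spot intensities from Agilent Feature Extraction (version 11.0.1.1 in the submitters' processing notes, 10.7.3.1 in the file headers), background-subtracted and without normalization across arrays, and a table of intensities that they quantile normalized in GeneSpring, used here as an alternative. The deposited detection and outlier marks were taken as given.

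From the processed intensities, control spots and marked spots (8.72 to 10.4% of an array) were dropped, spots and then probes were averaged, the 758 microRNAs were quantile normalized across the arrays, a floor of 1 was applied, and log2 was taken. All 758 were fitted with limma 3.58.1 in R 4.3.3 (two-sided, rat as block), and p-values were Benjamini-Hochberg adjusted over all of them. The cutoff of 0.025 is that of the methods. Permutation tests used Python 3.11.15 with scipy 1.17.1. Deviations from the group means correlated between the paired samples at 0.80, 0.69 and 0.64. The p-values rest on 3 animals.

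The members, marker lists and tests were chosen with earlier results of these data known. The microRNAs named are the members, the opposite strands and seed relatives, 5 with the most similar profile, and 1 defining microRNA per marker list. Outside this rule, rno-miR-486 and rno-miR-150-5p are named after their values were seen. The alternatives changed the normalization, the intensity, the probe summary, the floor, the filter, the test, the block and the rats. Quantitative PCR was not analysed here.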

Additional observations from a re-analysis of the deposited data

How the results depend on the processing

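In the 23 alternatives, no member passed the cutoff or the adjusted threshold, and the smallest member p was 0.0337, for rno-miR-30d-5p without rat 3 (limma). Over all microRNAs, 22 of the 23 had 0 at the adjusted threshold, and 1 microRNA, no member, passed it when those detected on at least 1 array were fitted. Of 115 combinations of a member and an alternative, 17 turned the direction. Alternatives that changed only the floor, the filter, the test or the block left the members' estimates as they were. These could not turn a direction, so the 115 overstate how often it could have turned. Without normalization the differences were 0.31 for rno-miR-30a-5p, 0.30 for rno-miR-30b-5p, 0.27 for rno-miR-30d-5p and 0.28 for rno-miR-30e-5p (median 0.30), and with hybridization spike-ins 0.40, 0.38, 0.36 and 0.37 (median 0.38), both moving all detected microRNAs along. For rno-miR-30c-5p the difference was -0.0473 and -0.0445 with the 75th percentile of detected and of all microRNAs, -0.48 with the labelling spike-ins (median -0.56), -0.0588 in the authors' table and -0.0316 from the brightest probe, which gave 0.0021 for rno-miR-30b-5p. Leaving out 1 rat gave -0.10 to 0.0438 for rno-miR-30a-5p, -0.17 to -0.018 for rno-miR-30b-5p, -0.12 to 0.20 for rno-miR-30c-5p, -0.25 to -0.11 for rno-miR-30d-5p and -0.36 to -0.0555 for rno-miR-30e-5p. The members' median of -0.11 became -0.018 without rat 1, the rat whose absence also gave the value nearest 0 for rno-miR-30b-5p. Without rat 2, rno-miR-30e-5p was at -0.0555, and without rat 3 at -0.36, where rno-miR-30d-5p was at -0.11. The cause was not tested.

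The count of members with 1 direction in all rats was 1 here, where 19.8% of the 126 detected microRNAs had 1 direction. It was 0 without normalization, with either percentile and with either spike-in set, and 2 with total gene signal or marked spots kept. Without 1 rat it was 1 to 3, but then only 2 rats have to share a direction, so these counts cannot be set against the others. The share of the 126 is not given for these alternatives. The 6 microRNAs called became 2 with the labelling spike-ins or a floor of 5, 3 among those detected on all arrays, 11 with the brightest or the median probe, 12 in the authors' table, 13 with normexp or a floor of 0.1, 17 with spot medians, and 17 to 33 without 1 rat (17 without rat 3, 19 without rat 2, 33 without rat 1). The split of arterial to venous calls, 4 to 2 here, was 4 to 1 without normalization, 3 to 4 and 2 to 3 with the percentiles, 4 to 0 with hybridization and 1 to 1 with labelling spike-ins, 0 to 2 with a floor of 5, and 3 to 0 and 6 to 0 when only microRNAs detected on all arrays or on at least 1 were fitted. With no replicate block, 5 were called and the smallest member p was 0.135, so the paired fit changed no call on a member. The members' share of the signal was lower on average in arterial plasma in all 6 of its alternatives, with mean differences of -0.361 to -0.10 percentage points. Those that left out 1 rat could not turn it, because the difference was below 0 in each rat. With 3 rats, the intervals of the members leave room for ratios from 0.543 to 1.66.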
